A study of Drosophila melanogaster with 27 samples.

Results

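The genes described here encode the structural proteins of insect cuticle and the Osiris family of proteins made by cuticle-forming epithelia. They were taken from the table of read counts by their FlyBase symbol, as every row whose symbol begins with Cpr and a digit, Lcp and a digit, Ccp84A, Twdl, or Osi and a digit. This gave 142 genes of the 15348 in the table, namely 70 Cpr, 17 Lcp, 7 Ccp84A, 26 Twdl and 22 Osi genes. Of the 142, 14 had no read in any library and 57 reached 1 CPM (the count of a gene scaled to the assigned reads of its library) in at least 2 of the 27 libraries. These 57 were 33 Cpr, 9 Lcp, 2 Ccp84A, 4 Twdl and 9 Osi genes, and they are among the 9814 genes of the table at that minimum.

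Cuticle is a layered matrix of chitin and protein that epithelial cells secrete at their apical face at each moult. Cpr, Lcp and Ccp84A proteins carry the Rebers-Riddiford consensus, a chitin-binding sequence, and the sets of them that are made differ by stage and body region. Tweedle (Twdl) proteins are cuticle proteins without that consensus, some of which shape the body when mutated, and Osiris proteins are insect-specific proteins of the endomembrane system, most of whose genes lie side by side at the Triplo-lethal locus. Imaginal discs, the epithelial sacs of the larva from which adult head, legs and wings grow, deposit pupal and adult cuticle after pupariation, while the larva's own cuticle is made by its epidermis.

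RNA sequencing measured eye-antennal, leg and wing discs of Drosophila melanogaster with a tumour driven in their posterior compartment. The driver was hh-Gal4, combined in all genotypes with UAS-GFP. Control discs carried a hairpin against luciferase and were dissected on day 5. Tumour discs carried UAS-scrib-RNAi, which targets the epithelial polarity gene scrib, UAS-Ras[v12], an activated Ras, and the luciferase hairpin, and were dissected on day 9 (replicate 1) or day 11 (replicate 2). In further tumours the luciferase hairpin was replaced by one against CG6272 (HMS00057, day 8), sd (JF02514, day 7 to 8), Stat92E (HMS00035, day 8) or kay (HMS00254, day 10), and tumours titled tai (GL00514, day 10) carried the tai hairpin on the chromosome opposite the scrib and Ras transgenes. These genes encode transcription factors or, for tai, a coactivator. Larvae were raised at 25 °C, each library pooled the discs of 35 to 50 of them, and the replicates are separate dissections. Control and tumour had 2 libraries for each of the 3 discs. CG6272 and sd had 2 eye-antennal and 2 leg libraries, Stat92E had 1 and 2, tai had 2 and 1, and kay had 1 eye-antennal library. Only the posterior cells of a disc express the transgenes, so each library mixes them with the anterior cells.

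Reads assigned to genes numbered 11.7 to 16 M per library. In tumours scrib stood at 222 to 270 CPM against 311 to 430 in controls, and Ras85D, counted together with its transgene, at 585 to 1310 against 265 to 314. The gene of CG6272, listed as Irbp18, stood at 8.7 to 12 CPM under its hairpin against 46.5 to 82 in eye-antennal and leg tumours, and Stat92E at 164 to 180 against 215 to 234. The targets sd, tai and kay did not pass the test under their own hairpins (adjusted p = 0.565, 0.348 and 0.221, edgeR), so those samples are called the libraries titled sd, tai and kay. For eye-antennal discs titled sd, the hairpin written in the genotype is that of kay, so which hairpin they carried is uncertain. Summed markers of each disc were highest in the disc named by the label in every genotype with more than 1 disc. Replicate 1 of the eye-antennal discs titled tai stood apart in these gene families. Its summed larval muscle markers were 2260 CPM, where the other 26 libraries had 51.6 to 1180, and its members Lcp1, Lcp2 and Lcp4 summed to 477 CPM, where the others had 0.259 to 62.2. Results that rest on it are given with and without it.

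The families made up a small share of the reads, 0.0327% to 0.171% of each library. Per kilobase of exon, Cpr49Ac was the highest in control discs at 122 CPM per kb, followed by Cpr12A (68.8), Cpr78E (41.7) and Cpr51A (38.1). In tumours Cpr49Ac was again the highest at 183 CPM per kb, followed by TwdlE (88), Cpr64Ac (78.2) and Cpr51A (77.7), with Osi14 at 56.7. Cpr49Ac did not pass the test between tumour and control (log2 change 0.44 ± 0.29 SE, adjusted p = 0.232). Of the 57 genes, 29 reached the minimum in both control and tumour libraries, 6 in control but not tumour, 13 in tumour but not control and 9 in neither of these. A gene that entered through only one genotype had to differ between them, so the counts below describe the genes and are not a measure of how the families behave as a whole.

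**Figure D1:**
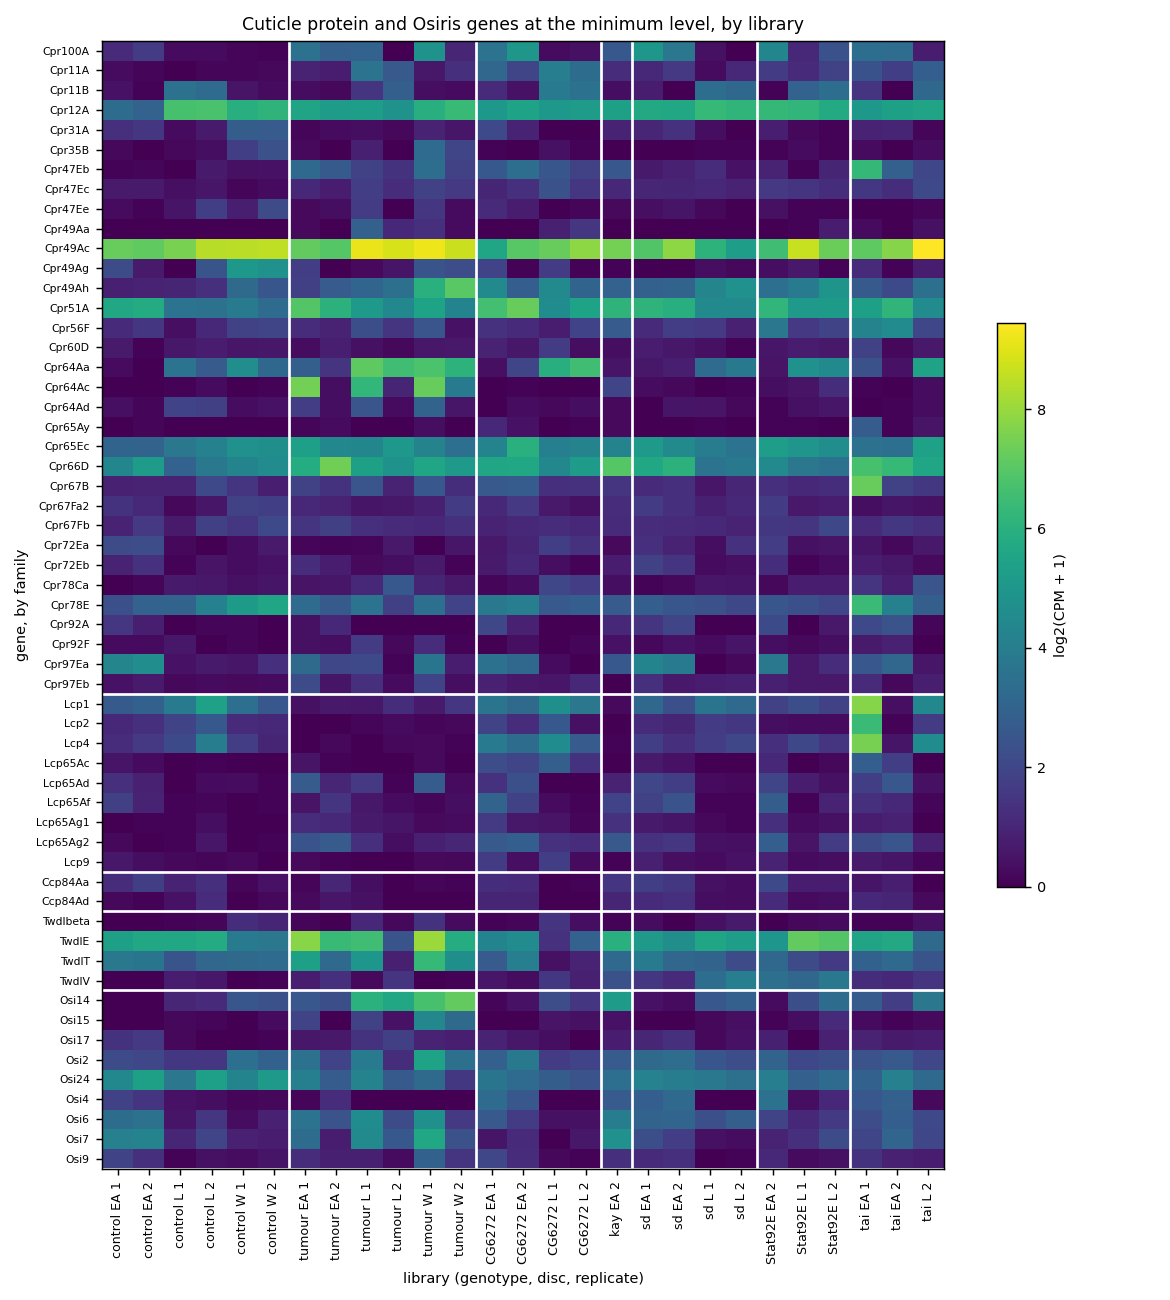
Level of each of the 57 genes (rows, by family, white lines between families) in each of 27 libraries (columns, white lines between genotypes; EA, eye-antennal; L, leg; W, wing) as log2(CPM + 1). Cpr49Ac, Cpr12A and TwdlE were present in every library, whereas Cpr64Ac was high in some tumour libraries and Lcp1, Lcp2 and Lcp4 in replicate 1 of the eye-antennal discs titled tai.

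Control discs differed from each other in several of these genes. Cpr12A was low in eye-antennal and high in leg and wing discs, Cpr51A was the reverse, Cpr11B was high in leg discs and Osi14 was highest in wing discs. Cpr12A stood at 9.24 and 6.88 CPM in eye-antennal, 103 and 106 in leg and 59.6 and 70.3 in wing discs. Cpr51A stood at 48.8 and 55.6 CPM in eye-antennal, 11.1 and 10.9 in leg and 13.5 and 8.93 in wing discs. Cpr11B stood at 10.8 and 8.86 CPM in leg discs and at 0.0668 to 0.417 in the other 4 control libraries. The discs did not overlap for Cpr12A, and for Cpr51A and Cpr11B the marked disc lay apart from both others. Osi14 had no read in either control eye-antennal library, which allows up to 0.107 CPM (3 reads over both), and stood at 1.03 and 1.22 CPM in leg and 4.84 and 4.06 in wing discs.

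The joint test of the 3 control discs called 18 of the 57 genes, where it called 11.8% of all genes tested (edgeR quasi-likelihood F-test, Benjamini-Hochberg adjusted p below 0.05). The adjusted p was 5.07e-07 for Cpr12A, 2.28e-04 for Osi14, 0.00281 for Cpr51A and 0.00921 for Cpr11B, and only these 4 calls held with each of the 6 control libraries left out in turn. It called 6 genes without either eye-antennal replicate, 10 without leg replicate 1, and 7 and 10 without wing replicates 1 and 2. Cpr97Ea, Osi6 and Osi7 were also highest in eye-antennal controls, with Cpr97Ea at 18.8 and 24, Osi6 at 9.01 and 10.4 and Osi7 at 16.4 and 17.5 CPM. In leg and wing controls these 3 genes stood between 0.25 and 2.91 CPM. Of them Cpr97Ea and Osi6 were called, and Osi7 was not. Cpr49Ah and Cpr31A were highest in wing controls, at 8.52 and 4.72 CPM and at 5.93 and 5.61 CPM.

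Tumour discs were set against control discs to find which of these genes differ with scrib knockdown and activated Ras. Genes of every family but Ccp84A rose, among them Cpr64Ac, Osi14, Cpr47Eb and Cpr64Aa, and a smaller set fell, among them the larval cuticle genes Lcp1, Lcp2 and Lcp4. Averaged over the discs, 24 of the 57 genes were higher and 7 lower, where 52.8% of all genes tested were called, 28.3% higher and 24.5% lower. By family, 12 Cpr genes rose and 1 fell, 3 Lcp genes rose and 3 fell, 1 Ccp84A gene fell, 3 Twdl genes rose, and 6 Osi genes rose and 2 fell. The median log2 change was 1.19 over the 57 and 0.03 over all genes tested. Genes that entered through only one genotype, more of them through the tumour, are part of the first median. Like the counts, it does not measure the families as a whole. With each of the 12 libraries left out in turn, 13 of the 24 higher and 6 of the 7 lower calls held every time. When dissection was a random block (limma-voom), 8 were higher and 2 lower, and without the block limma-voom called 13 and 4. Fewer cells of a type and less RNA per cell cannot be told apart in these libraries, and control and tumour larvae differed in age. The edgeR p-values measure the spread between the replicates of a group, which in tumours also differ in day. They take same-numbered discs of a genotype, treated as 1 dissection in the block, as independent, though the limma-voom correlation among these was 0.442.

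Among the Rebers-Riddiford genes that rose were Cpr64Aa and Cpr49Ah, called in each of the 3 discs, and Cpr47Eb, Cpr66D and Cpr51A, called in 2 discs each. Cpr64Aa stood at 0.227 and 0 CPM in control and 6.17 and 1.73 in tumour eye-antennal discs. In leg discs it stood at 11.1 and 5.61 CPM in control and 137 and 93 in tumour, and in wing discs at 23.5 and 7.97 against 108 and 67.9. Tumour lay above control in each disc, and the log2 change over the discs was 3.78 ± 0.61 (adjusted p = 1.32e-04). Cpr49Ah stood at 0.757 and 0.868 CPM in control and 2.48 and 5.48 in tumour eye-antennal discs, at 0.954 and 1.42 against 7.5 and 10.2 in leg discs, and at 8.52 and 4.72 against 62.7 and 129 in wing discs. It too was higher in both tumour libraries of each disc (3.01 ± 0.41, adjusted p = 2.35e-05), and wing discs had the highest level of it in both genotypes.

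Cpr47Eb spanned 0 to 0.609 CPM in the 6 control libraries (median 0.234) and 1.6 to 9.61 in the 6 tumour libraries (median 4.03), so that the genotypes did not overlap (4.24 ± 0.79, adjusted p = 3.63e-04). Cpr66D averaged 19 ± 9.55 CPM (SD, n = 6) in control and 62 ± 53.6 in tumour libraries, and lay higher in the tumour in each disc (1.60 ± 0.26, adjusted p = 1.39e-04). Its highest value, 169 CPM, was in replicate 2 of the eye-antennal tumours, without which the change was the smallest of the 12 leave-one-out values, 1.24. Cpr51A averaged 24.8 ± 21.4 against 50.6 ± 38.9 CPM (1.19 ± 0.26, adjusted p = 0.00129), and both genotypes had their highest values in eye-antennal discs. These 5 calls held with each library left out, while with dissection as a random block those of Cpr47Eb (adjusted p = 0.435) and Cpr49Ah (adjusted p = 0.058) ended. Cpr100A, at 0.0738 to 2.14 CPM in controls and 0 to 27.3 in tumours, was called higher (4.53, adjusted p = 0.00185), but not without replicate 1 of the leg tumours. Cpr65Ec (7.08 to 26.5 and 9.8 to 38.8 CPM) was not called over the discs. Of the lower genes Cpr31A stood at 0.22 to 5.93 CPM in controls and 0.0857 to 0.882 in tumours, with the ranges overlapping (-2.47 ± 0.53, adjusted p = 0.0013). In wing discs Cpr78E fell from 34.2 and 46.7 to 9.96 and 2.74 CPM (-2.68, adjusted p = 0.0203), a call lost without replicate 2 of either genotype.

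Cpr64Ac and its neighbours Cpr64Aa, Cpr64Ab and Cpr64Ad form a run of 4 in the genome. Cpr64Ac had no read in control eye-antennal discs, again allowing up to 0.107 CPM, and at most 0.203 CPM in the other control libraries. On day 9 the tumours held 176 CPM in eye-antennal, 74.5 in leg and 152 in wing discs, and on day 11 they held 0.288, 0.946 and 14.2. Each tumour library lay above every control library, though the nearest values, 0.288 and 0.203 CPM, are a few reads each. The call (edgeR, adjusted p = 5.48e-04) held with each library left out. It ended with limma-voom, with dissection as a random block (adjusted p = 0.466) and without it (adjusted p = 0.362). Because control libraries hold so few reads of the gene, no fold change is given. Cpr64Ab, below the minimum, reached 2.65 CPM in the day 9 wing tumour and was at most 0.706 in the other tumour libraries.

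Cpr49Aa had no read in the 6 control libraries, a total that allows up to 0.0351 CPM, and 6.44 and 1.09 CPM in leg, 1.5 and 0.216 in wing and 0.171 and 0 in eye-antennal tumours. Its call over the discs (adjusted p = 0.0115) ended without replicate 1 of the eye-antennal tumours. Among the Lcp65A genes, Lcp65Ag2 stood at 0 to 0.474 CPM in controls and at 4.54 and 5.62 in eye-antennal tumours, against 0.291 to 1.5 in leg and wing tumours. It was called over the discs (3.95 ± 0.64, adjusted p = 1.02e-04) and in eye-antennal discs alone (adjusted p = 0.00111). Lcp65Ag2 and Lcp65Ag1 belong to a group of near copies, whose reads could be lost as aligned to more than 1 place or split between them, so the level of each is uncertain.

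The Osiris genes of the table include 20 that lie in 1 run of the annotation, from Osi1 to Osi20, and all 9 Osiris genes at the minimum belong to it. Within the run Osi14 had the largest log2 change over the discs, though in wing discs alone the fitted changes of Osi15 and Osi7 were larger than its own. Osi24 and Osi4 changed the other way, while Osi8, Osi11, Osi12, Osi13 and Osi16 had at most 0.176 CPM in control and tumour libraries. Osi14 stood at 4.88 and 3.82 CPM in eye-antennal, 65.3 and 49.5 in leg and 104 and 143 in wing tumours. Against the control levels given above it was 51.1-fold higher in leg (log2 change 5.66 ± 0.55, adjusted p = 4.74e-06) and 27.8-fold higher in wing discs (4.80 ± 0.51, adjusted p = 1.49e-05). In eye-antennal discs, with no control read, it was at least 40.7-fold higher, taking 3 reads over both control libraries as the floor, which like all such floors covers counting error only. The order of the discs, eye-antennal below leg below wing, was that of the controls, and the difference of the tumour effect among discs was not called for Osi14.

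Its neighbour Osi15 stood at 0 to 0.221 CPM in controls, at 19.8 and 8.72 in wing, 2.65 and 0.364 in leg and 2.83 and 0 in eye-antennal tumours. The genotypes overlapped through the eye-antennal library of day 11, and the call (adjusted p = 9.11e-04) ended without replicate 1 of the eye-antennal tumours (adjusted p = 1). Osi6 stood at 11.2 and 4.4 CPM in eye-antennal, 23.4 and 3.56 in leg and 25.8 and 1.95 in wing tumours, where controls had 9.01 and 10.4, 0.44 and 1.83, and 0.25 and 0.812. Its values overlapped those of the controls in eye-antennal discs and lay above them in leg and wing discs, and its change over the discs was 2.63 ± 0.62 (adjusted p = 0.00239), a call that ended with dissection as a random block (adjusted p = 0.197). Osi7 and Osi2, of the same stretch of the run, were called higher (2.02 ± 0.72, adjusted p = 0.0288, and 1.57 ± 0.48, adjusted p = 0.0124), but lost the call without any 1 of the 3 day 9 libraries, and Osi7 also without any 1 control library but replicate 2 of the leg discs. Osi7 was not higher in every disc: eye-antennal tumours had 9.25 and 0.649 CPM against 16.4 and 17.5 in controls, a difference not called (-1.78, adjusted p = 0.289). For both, the day 11 tumours alone gave a change of the other sign, -0.29 and -0.13, which did not pass the test.

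Per kilobase of exon Osi24 was the highest Osiris gene of the controls (10.4 CPM per kb, against 3.47 in tumours), and it fell in tumours. It spanned 12.4 to 40.6 CPM in controls (median 27.1), 8.64 to 17.6 in day 9 tumours and 1.87 to 5.7 in day 11 tumours. The day 11 tumours lay below every control library and the day 9 tumours overlapped the controls (-1.67 ± 0.44, adjusted p = 0.00532). Osi4 stood at 2.57 and 1.67 CPM in control and 0.0857 and 1.3 in tumour eye-antennal discs, and was called lower over the discs (adjusted p = 0.00772). It had no read in leg and wing tumours, which allows up to 0.113 and 0.12 CPM, where controls had 0.367 and 0.271 in leg and 0.0835 and 0.148 in wing discs, so in wing discs a fall was not detectable at this depth. Osi17 was called higher (adjusted p = 0.0208) at tumour levels of 0.514 to 2.47 CPM that overlapped the controls' 0 to 1.94, and lost the call without replicate 2 of the control leg or replicate 1 of the control wing discs. Osi9 was not called over the discs (adjusted p = 0.0539) and was higher in wing tumours (6.7 and 1.66 against 0.25 and 0.443 CPM, adjusted p = 0.00888), a call lost without replicate 1 of the control or of the tumour wing discs. At the end of the run Osi18, Osi19 and Osi20 reached 3, 2.82 and 6.44 CPM in the day 9 wing tumour and at most 0.428 CPM in any other control or tumour library.

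**Figure D2:**
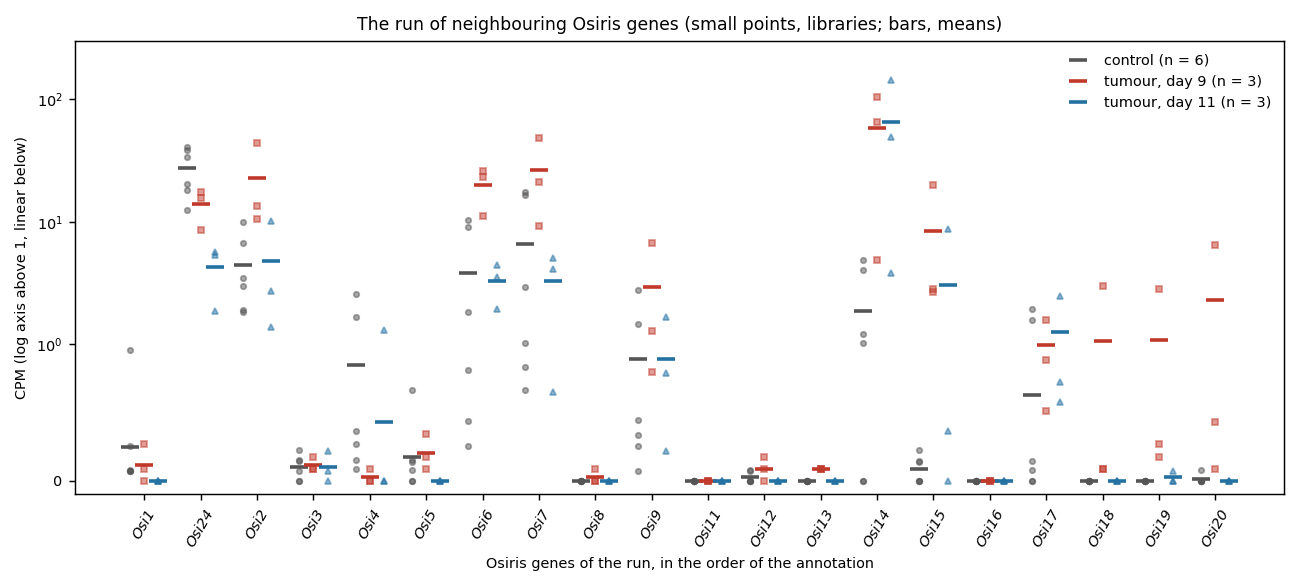
Level in CPM (vertical axis, logarithmic above 1 and linear below) of the 20 Osiris genes of the run, in annotation order, in control (n = 6) and day 9 and day 11 tumour libraries (n = 3 each); small points are libraries and bars are means. Osi14 was high on both days, Osi2, Osi6 and Osi7 were higher on day 9 than on day 11, and Osi24 was highest in controls.

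Of the Tweedle genes, TwdlE and TwdlT were present in every control and tumour library. TwdlE stood at 39.9 and 49.8 CPM in eye-antennal, 48.9 and 55.5 in leg and 13.5 and 12.4 in wing controls, and at 216 and 81, 93.2 and 4.44, and 259 and 57 in the matching tumours, day 9 before day 11. Every tumour but that of day 11 in leg discs lay above its control. TwdlT stood at 4.47 to 12.6 CPM in controls and at 30.4 to 79.6 on day 9, against 0.8 to 25.1 on day 11. Both were called higher over the discs (1.74 ± 0.55, adjusted p = 0.0155, and 1.64 ± 0.62, adjusted p = 0.0384). Neither call held without replicate 1 of the leg tumours (0.59 and 0.22) or of the wing tumours (1.25 and 1.29), and TwdlT also lost it without any 1 control library. With day 11 tumours alone the changes were -0.19 and -0.65, neither past the test. The exons of TwdlE overlap those of lectin-28C on the opposite strand over 71.9% of their length. The strand setting and mode of the counting are not given. Whether reads of the shared part were set aside as ambiguous or credited to a gene is not known, so the level of TwdlE is uncertain. TwdlV, in a separate run of Tweedle genes, had no read in control eye-antennal discs and 0.685 and 1.44 CPM in eye-antennal tumours, a difference called in that disc (adjusted p = 0.00294).

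The larval cuticle genes Lcp1, Lcp2 and Lcp4 encode major proteins of the late larva's cuticle and lie in 1 run with Lcp3. Lcp1 stood at 5.45 and 6.68 CPM in eye-antennal, 14 and 41.9 in leg and 10 and 4.87 in wing controls, and at 0.343 to 1.8 in the 6 tumours. Lcp4 stood at 0.959 to 15.1 CPM in controls and 0 to 0.176 in tumours, and Lcp2 at 1.06 to 5.14 and 0 to 0.218. None of the 3 overlapped between the genotypes. The log2 change of Lcp1 was -3.69 ± 0.94 (adjusted p = 0.00438). Lcp2 and Lcp4, with few or no reads in the tumours, had adjusted p = 0.00683 and 0.00511. These calls held with each library left out. With dissection as a random block that of Lcp1 ended (adjusted p = 0.534), and with 2 lower calls in all, Osi24 among them, so did that of Lcp2 or Lcp4 or both. Lcp1 and Lcp2 are near copies, so reads could be lost as aligned to more than 1 place or split between them. Summed fat body markers (6 genes) spanned 423 to 8190 CPM in controls and 35.5 to 279 in tumours, while larval muscle markers (4 genes of the list) spanned 54.2 to 145 and 62.2 to 178. The part of attached larval tissue in the levels of these 3 genes was not tested.

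**Figure D3:**
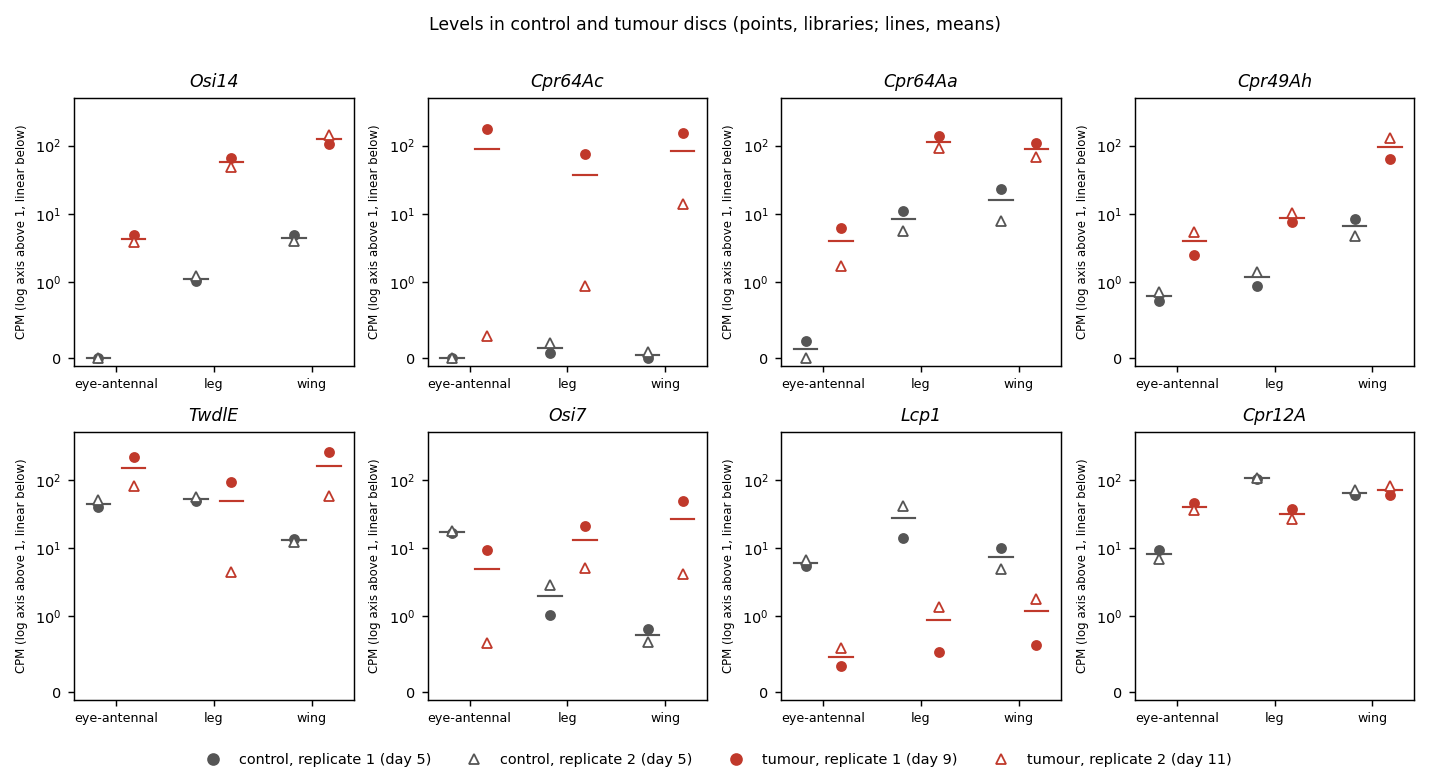
Level in CPM (vertical axis, logarithmic above 1 and linear below) of 8 genes in control (grey) and tumour (red) discs, with 2 libraries a group as points and their mean as a line; filled circles are replicate 1 and open triangles replicate 2, which in tumours are day 9 and day 11. Osi14, Cpr64Aa and Cpr49Ah were higher and Lcp1 lower in the tumour of every disc, Cpr64Ac, TwdlE and Osi7 differed between the tumour days, and Cpr12A was higher in eye-antennal and lower in leg tumours.

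Disc by disc, 12 genes were higher and 2 lower in eye-antennal tumours (17.1% and 12.1% of all genes tested), 12 and 5 in leg tumours (19.7% and 18.6%, 38.3% in all), and 16 and 3 in wing tumours (16.3% and 14.1%). Only Osi14 held its call in all 3 discs with each library left out. These counts leaned on single libraries, since without replicate 1 of the control they were 6 higher in eye-antennal, 4 in leg and 4 in wing discs. With dissection as a random block 4 and 4 genes were called in eye-antennal, 6 and 2 in leg and 8 and 4 in wing discs. Cpr11A stood at 11.1 and 5.16 CPM in leg tumours against 0 and 0.135 in leg controls, and at 0.529 to 1.51 in eye-antennal and wing tumours (leg adjusted p = 1.93e-04). It was also called in wing discs (adjusted p = 0.0313), a call lost without either control or replicate 2 of the tumour. Its tumour effect was not called different among discs.

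Cpr12A was the 1 gene of the 57 whose tumour effect differed among the discs (adjusted p = 4.09e-05), a test that called 3.28% of all genes. In tumours it stood at 45.2 and 35.6 CPM in eye-antennal, 37 and 26.9 in leg and 59.6 and 82.3 in wing discs. Compared with the control levels above, it rose in eye-antennal (2.33 ± 0.24, adjusted p = 7.95e-06), fell in leg (-1.71 ± 0.22, adjusted p = 3.69e-05) and was not called in wing discs (0.13 ± 0.22, adjusted p = 0.686). Its levels ran from 6.88 to 106 CPM in the controls and from 26.9 to 82.3 CPM in the tumours, and in eye-antennal and leg discs the genotypes did not overlap. When the replicate number was a block within each genotype, which takes its same-numbered discs as 1 dissection, 6 genes were called.

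The tumour libraries were also compared by day, over the 3 discs. Day, dissection and replicate number coincide in them and cannot be told apart. On day 11 no gene of the 57 was higher and 13 were lower than on day 9, where 4.49% and 7.83% of all genes tested were called. At an unadjusted p below 0.05 edgeR had 3 higher and 21 lower, and DESeq2 called 1 higher. All 13 were lower in 3 of 3 discs, but they were called by a change common to these discs, which favours such agreement. Of the 57 genes, 26 were lower and 6 higher in 3 of 3 discs. The like share of all genes tested was not computed, so nothing is read from these counts. Cpr64Ac, with the values given above, fell by 5.81 ± 0.88 on the log2 scale (adjusted p = 0.002), an average over discs of unequal change. The ratio of the mean CPM of the 2 days, which weights the discs by level, was 26. Osi2 stood at 10.5, 13.5 and 43.7 CPM on day 9 in eye-antennal, leg and wing discs and at 2.74, 1.38 and 10.2 on day 11 (-2.41 ± 0.31, adjusted p = 1.95e-04). TwdlE and TwdlT fell by 2.48 ± 0.45 (adjusted p = 0.00382) and 2.82 ± 0.61 (adjusted p = 0.00906). These 4 calls held with each tumour library left out.

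The other 9 were Osi6, Osi7, Osi24, Cpr51A, Cpr64Ad, Cpr97Ea, Cpr97Eb, Cpr100A and Lcp65Ad, with changes of -0.95 to -3.70, and each lost the call without at least 1 library. Without either replicate of the wing tumours 4 genes were lower, and without either of the leg tumours 5. Osi7 stood at 9.25, 21.3 and 48.7 CPM on day 9 and 0.649, 5.09 and 4.11 on day 11 (-3.11 ± 0.67, adjusted p = 0.00874). Osi6 had 11.2, 23.4 and 25.8 CPM on day 9 and 4.4, 3.56 and 1.95 on day 11, with no overlap. Osi14 stood at 58.1 ± 50 CPM on day 9 and 65.5 ± 71.1 on day 11 (n = 3 each; -0.08 ± 0.37, adjusted p = 0.932), and Cpr64Aa and Cpr49Ah were not called either (adjusted p = 0.409 and 0.284). Each day was also set against the controls alone, which leaves 1 tumour library a disc. The log2 changes on day 9 and day 11 were 6.47 and 6.40 for Osi14 and 4.15 and 3.17 for Cpr64Aa. They were 2.47 and 3.37 for Cpr49Ah, 3.34 and 0.78 for Osi6, and 2.83 and -0.29 for Osi7. This split was chosen after the data were seen.

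Tumours with a hairpin against 1 transcription factor were set against plain tumours, disc for disc, to find which levels differ with each factor. Osi14 was lower with the hairpins against CG6272 and Stat92E and in libraries titled sd. Cpr64Ac was at most 0.233 CPM in CG6272 and sd libraries, where it was called lower. Without a call, it was at most 0.25 CPM in libraries titled tai, 0.287 to 1.34 with Stat92E and 2.97 in the kay library. The day 11 tumours had 0.288 CPM in eye-antennal and 0.946 in leg discs. Cpr12A and TwdlV were higher with Stat92E and in libraries titled sd. These comparisons use the same 4 eye-antennal and leg tumour libraries, or for kay the 2 eye-antennal ones, so they are not independent and are given side by side. Genotype and day of dissection cannot be told apart, and the names of the deposited libraries of CG6272, Stat92E and kay take another form than the rest, so that a difference between runs cannot be told apart from these genotypes.

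With the CG6272 hairpin 7 of the 57 genes were higher and 7 lower than in tumours (5.33% and 8.92% of all genes tested). Osi14 stood at 0.123 and 0.386 CPM in eye-antennal and 3.68 and 1.85 in leg discs, all below the tumours' 4.88 and 3.82 and 65.3 and 49.5 (-4.21 ± 0.40, adjusted p = 1.12e-05). Cpr64Ac was represented by 0.0644 CPM in 1 of the 4 libraries and no read in the others (adjusted p = 0.01). Osi6, Osi7, Osi15, TwdlE and TwdlT were the others lower, and like Cpr64Ac lost the call without some library. With 1 library left out, 3 to 6 genes were higher and 1 to 9 lower, the lowest without replicate 1 of the leg tumours, where Osi14 was the 1 called. The higher genes included 5 of the 9 Lcp genes. Lcp4 stood at 14.1 and 9.01 CPM in eye-antennal and 23.1 and 5.5 in leg discs, against 0 to 0.145 in the 4 tumours (adjusted p = 0.0064). Lcp65Ac stood at 1.59 to 6.22 against 0 to 0.428 CPM (adjusted p = 0.00273) and Lcp9 at 0.199 to 2.4 against 0 to 0.171 (adjusted p = 0.00725). None of the 3 overlapped the tumours, though for Lcp9 the nearest values, 0.199 and 0.171 CPM, are a few reads each. These calls held with each library left out. Cpr11A was also called higher (1.71, adjusted p = 0.0499), a call lost without 7 of the 8 libraries compared. With dissection as a random block 1 gene was higher and 1 lower. Without a call, Lcp4 also lay above the 4 tumours in libraries titled sd (1.46 to 3.07 CPM) and with Stat92E (1.43 to 3.09). The larval muscle markers summed to 1180, 807, 555 and 101 CPM in the 4 CG6272 libraries and to 93.6 to 178 in the 4 tumours. Fat body markers summed to 1500, 2840, 154 and 1470 CPM against 35.5 to 273, and the part of either tissue in the Lcp levels was not tested.

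In libraries titled sd 5 genes were higher and 8 lower (9.26% and 12% of all genes tested). Osi14 stood at 0.388 and 0.219 CPM in eye-antennal and 4.99 and 6.37 in leg discs (-3.57 ± 0.39, adjusted p = 5.44e-05), below the tumours within each disc. Cpr12A stood at 50.8 and 49.8 CPM in eye-antennal and 78.7 and 70.9 in leg discs, above all 4 tumours (0.77 ± 0.16, adjusted p = 0.00309). These calls held with each library left out. Cpr64Aa was at 0.543 and 0.731 CPM in eye-antennal and 8.83 and 13 in leg discs, below the tumours in both (-2.99 ± 0.69, adjusted p = 0.00785), a call lost without replicate 1 of the eye-antennal tumours (adjusted p = 0.0637). Cpr49Ac, the most abundant gene of the families, stood at 118 and 228 CPM in eye-antennal and 68.4 and 37.7 in leg discs, where leg tumours had 578 and 471 and eye-antennal tumours, which overlapped, 145 and 122 (-1.47 ± 0.37, adjusted p = 0.0122), and lost the call without replicate 1 of the eye-antennal or replicate 2 of the leg libraries titled sd (adjusted p = 0.0531 and 0.0585). TwdlV stood at 1.79 and 1.17 CPM in eye-antennal and 9.55 and 15.5 in leg discs, against 0.176 to 1.67 in the 4 tumours (2.09 ± 0.57, adjusted p = 0.0184), and lost the call without 3 of the 8 libraries, replicate 1 of the eye-antennal tumours and of the eye-antennal and replicate 2 of the leg libraries titled sd. Lcp1 stood at 7.99 and 3.95 CPM in eye-antennal and 11.3 and 8.36 in leg discs, against 0.343 to 1.38 in the 4 tumours. It was called higher (3.48, adjusted p = 0.0493), as was Lcp9, and each lost the call without any 1 of the 8 libraries. Osi7 was called lower (-3.06, adjusted p = 0.0354), a call lost without 6 of the 8 libraries. The remaining calls each needed some library, and with dissection as a random block 1 gene was higher and 1 lower. With 1 library left out, 1 to 3 genes were higher and 3 to 11 lower, the fewest lower without replicate 1 of the eye-antennal libraries titled sd.

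With the Stat92E hairpin 3 genes were higher and 2 lower (6.5% and 6.8% of all genes tested), and all 5 calls held with each library left out. Osi14 stood at 0.215 CPM in the eye-antennal and 3.79 and 9.08 in the leg libraries (-3.72 ± 0.50, adjusted p = 4.73e-04). Cpr66D stood at 21.2 and at 12.5 and 10.8 CPM, below the tumours' 56.3 and 169 and 40.2 and 27.4 (-1.97 ± 0.38, adjusted p = 0.00481). TwdlV stood at 10.2 and at 7.72 and 12.8 CPM, where the 4 tumours had 0.176 to 1.67 (3.34 ± 0.61, adjusted p = 0.00367). Cpr12A stood at 78.2 and at 72.5 and 54.4 CPM (0.97 ± 0.17, adjusted p = 0.00222), above all 4 tumours. Osi4 stood at 10.9 CPM in the eye-antennal library and 0.281 and 1.06 in leg discs (adjusted p = 0.00595). Eye-antennal tumours had 0.0857 and 1.3 CPM and leg tumours no read. Without a call, Osi4 was also above these eye-antennal tumours with the other hairpins. It stood at 8.83 and 4.89 CPM with CG6272, and at 6.05 and 8.47, 4.86 and 6.47, and 5.5 in eye-antennal libraries titled sd, tai and kay. In leg discs CG6272 and sd libraries had no read and the tai library 0.166 CPM. With only the compared libraries in the fit 1 gene was lower, Osi14, and none higher. The single eye-antennal library was assumed to vary like the other groups.

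In the single library titled kay 1 gene was higher, Osi14, and none lower (0.0713% and 0.112% of all genes tested). At an unadjusted p below 0.05 edgeR had 5 higher and 1 lower, and DESeq2 called 1 and 0. The single library was assumed to vary like the other groups. Osi14 stood at 35.6 CPM against 4.88 and 3.82 in eye-antennal tumours (3.03 ± 0.53, adjusted p = 0.0362), and the call ended without either tumour library (adjusted p = 0.172 and 0.13). In libraries titled tai Osi14 stood at 5.59 and 2.26 CPM in eye-antennal and 12.4 in leg discs and was not called (-1.17 ± 0.37, adjusted p = 0.121). Here 3 genes were higher and none lower (0.978% and 1.74% of all genes tested, 2.72% in all), with 9 and 7 at an unadjusted p below 0.05 (edgeR) and 3 lower by DESeq2. The 3 were Lcp1 at 209, 0.301 and 20 CPM in eye-antennal replicates 1 and 2 and the leg library, Lcp2 at 86.6, 0.0752 and 2.16, and Lcp4 at 181, 0.451 and 23.1. The first of these libraries was the one that stood apart, and it also held 151 CPM of Cpr67B, 86.6 of Cpr78E and 77.5 of Cpr47Eb. Without it Lcp4 was called higher (adjusted p = 0.0113) and Osi14 lower (-1.57 ± 0.37, adjusted p = 0.0487), and Lcp1 and Lcp2 were not called (adjusted p = 0.203 and 0.227). With the compared libraries alone and with dissection as a random block none was higher.

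**Figure D4:**
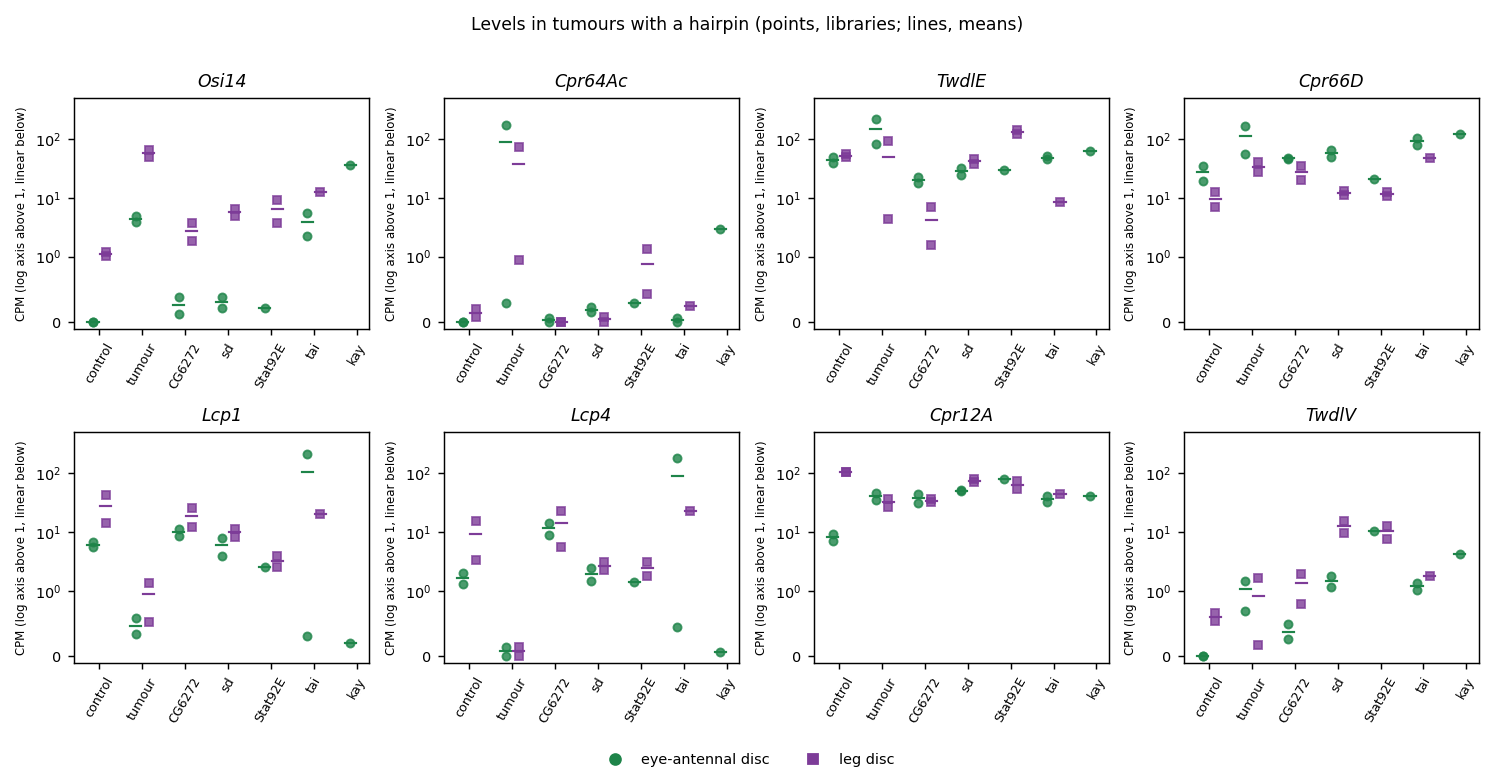
Level in CPM (vertical axis, logarithmic above 1 and linear below) of 8 genes in eye-antennal (green circles) and leg (purple squares) libraries of control, tumour and 5 hairpin genotypes; lines are group means. Osi14 lay below the tumour in CG6272, sd and Stat92E libraries of both discs and above it in the kay library, and the Lcp1 and Lcp4 means of tai eye-antennal discs rest on 1 library.

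The sum of Lcp1, Lcp2 and Lcp4 was set beside that of the 4 larval muscle markers in each of the 27 libraries. The library with the highest muscle sum, 2260 CPM, also had the highest Lcp sum, 477 CPM, and tumours, with muscle sums of 62.2 to 178 CPM, had Lcp sums of 0.343 to 2.02. In CG6272 libraries muscle sums of 1180, 807, 555 and 101 CPM stood beside Lcp sums of 28.2, 19, 53.2 and 18.1. Controls had muscle sums of 54.2 to 145 CPM and Lcp sums of 6.94 to 62.2, the highest in the leg library of replicate 2 with 54.2 CPM of muscle markers. The leg library titled tai had an Lcp sum of 45.3 at a muscle sum of 165 CPM, and the library titled kay 0.259 at 281. Replicate 2 of the eye-antennal discs titled tai had 0.827 at 173. Libraries titled sd had Lcp sums of 6.36 to 15.7 at muscle sums of 51.6 to 224 CPM, and Stat92E libraries 4.23 to 7.16 at 122 to 184. The Lcp sums of both genotypes lay above those of every tumour. The muscle sum was not the same mix in controls and tumours. Mlc2 stood at 11.6 to 28.5 CPM in controls and 42 to 98.9 in tumours, and Act57B at 31.6 to 79.6 and 14.1 to 80.1. The defining muscle gene Act57B was above 0 in all 27 libraries, at 12.9 to 1210 CPM, and the part of muscle or attached tissue in the Lcp sums was not tested.

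**Figure D5:**
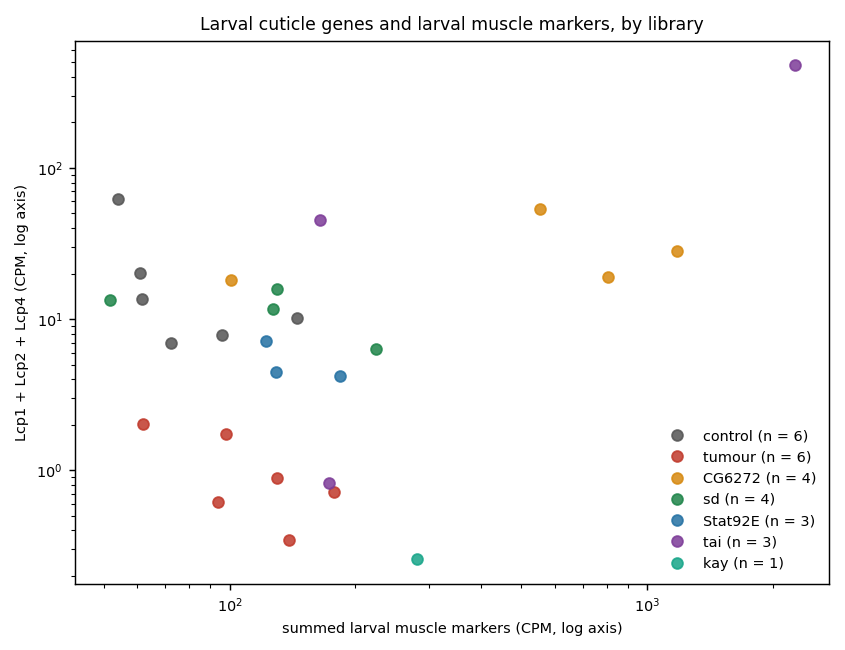
Sum of Lcp1, Lcp2 and Lcp4 (vertical axis, CPM) against the summed larval muscle markers Mlc2, Act57B, up and Tm2 (horizontal axis, CPM), both logarithmic, with 1 point a library and colours for genotypes. Replicate 1 of the eye-antennal discs titled tai lay at the upper right. Controls had higher Lcp sums than tumours, with muscle sums that overlapped, though Mlc2 made up more of the sum in tumours.

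Other genes of cuticle formation were read from lists chosen with earlier results of these data known. Against the 52.8% of all genes called, of 14 genes of chitin synthesis, chaperoning and modification, 7 rose and none fell in tumours, among them reb (4.97 ± 0.57, adjusted p = 4.35e-06), a chitin deposition factor, and the deacetylase genes Cda5 (2.91 ± 0.41, adjusted p = 3.13e-05) and serp (1.30 ± 0.31, adjusted p = 0.00269). The median log2 change of the list was 0.79. The genes serp and verm of this list also mark trachea and make up most of its 3-gene sum, 1100 to 2010 CPM in controls and 1280 to 4920 in tumours. The remaining tracheal marker, trh, fell (-0.93 ± 0.32, adjusted p = 0.0261). The others were exp, Cht5, Cht7 and rtv. Of 11 other cuticle protein genes tested, 3 rose and 1 fell, led by obst-E, a chitin-binding protein that shapes the larval and pupal body, at 18.2 to 80.3 CPM in tumours against 0.167 to 5.21 in controls (4.84 ± 0.57, adjusted p = 6.62e-06), with obst-B and Gasp higher and obst-A lower. Of 7 genes of the apical matrix dyl rose (3.12 ± 0.61, adjusted p = 5.57e-04) and m, neo, mey and pio fell. Of 8 tanning genes t and y rose and Mco1 and Pu fell.

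Of 16 regulators of cuticle genes 5 rose and 8 fell, where 28.3% of all genes tested were higher and 24.5% lower. The genes that fell were the ecdysone-response genes Hr3 and Blimp-1, with Eip75B, Hr39, grh, usp, vvl and sha. The gene ftz-f1, which encodes a nuclear receptor of the prepupa, rose from 8.19 to 13.8 CPM in controls to 81.4 to 105 in tumours (2.97 ± 0.18, adjusted p = 4.86e-09), with chinmo, dysf, EcR and Hr38. On day 11 the genes reb, Cda5, serp, verm, Cda4 and Cht5 of the chitin list and dyl were lower than on day 9, as were Edg78E, Gasp and Vajk4 of the other cuticle protein genes and the regulator Eip93F, with changes of -0.49 to -4.00. For Hr3, Blimp-1 and ftz-f1 the 2 days were not called different (adjusted p = 0.716, 0.476 and 0.503).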

How the data were processed

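RNA-seq of 27 libraries was analysed from the table of read counts per gene deposited by the authors, made with TopHat2, HTSeq and the dm3 build per the submitters' processing notes. For the tools' versions, the annotation, the counting mode and the strand, the sources used here give no entry. The summary lines of the counting were left out of library sizes. Reads aligned to more than 1 place were 15.8 to 22.9% of the reads in control and 54.4 to 76.1% in tumour libraries. They were 26.1 to 33.9% with CG6272, 43 to 54% with Stat92E and 47.8 to 61.5% in libraries titled sd, tai and kay. Reads of multigene families can be lost among such reads. CPM were computed from the counts.

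Genes with 1 CPM in 2 libraries (9814) were fitted with edgeR's quasi-likelihood F-test (edgeR 4.0.16, R 4.3.3, TMM) over all groups of genotype and disc, with 12 residual degrees of freedom. Comparisons were contrasts of the group means, with Benjamini-Hochberg adjustment over all genes tested and a call below 0.05. A standard error is the absolute log2 change over the square root of F. The fit was tested on simulated data with independent libraries. These hold no dissection effect, so they cannot show how such an effect alters the calls. Alternatives were limma-voom (limma 3.58.1), DESeq2 1.42.0, other filters and libraries, replicate blocks and leaving out each library. Figures used matplotlib 3.10.9. Replicates are separate dissections, and same-numbered libraries of a genotype were taken as 1 dissection. This is an assumption. In libraries titled sd, replicate 1 has day 7 to 8 for eye-antennal and day 8 for leg discs, and replicate 2 the reverse. Same-numbered libraries of a genotype deviated together with a median correlation of 0.218 over 8 pairs (-0.0575 to 0.546), against -0.052 over 58 pairs of other genotypes, so the numbers were not taken as pairs across genotypes.

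The gene families and the other lists were chosen with earlier results of these data known. Genes named were up to 15 per direction for tumour against control and up to 5 elsewhere, ranked by log2 change at 5 CPM or more (8 by p in joint tests), the 8 with the highest mean CPM, and every Osiris gene at the minimum. In some comparisons genes that this rule picks are given by name, level or count only, without a test value. Cpr31A, Cpr49Aa, Lcp2, Lcp9, Lcp65Ac, Lcp65Ag2, Cpr67B, Cpr64Ab, Cpr64Ad, Lcp65Ad and the Osiris genes below the minimum were added after their values were seen. No coordinates are given, since the reference annotation is of a later build, and it was used for names, neighbours and exon lengths.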

Additional observations from a re-analysis of the deposited data

Results flagged for a closer look

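The tumour effect on Cpr12A, a Rebers-Riddiford cuticle protein gene, differed between the discs (adjusted p = 4.09e-05, edgeR test of the interaction of genotype and disc). It was 2.33 ± 0.24 on the log2 scale in eye-antennal, -1.71 ± 0.22 in leg and 0.13 ± 0.22 in wing discs, with 2 libraries a group, and the call held with each of the 12 libraries left out.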

How the results depend on the processing

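Of 1244 alternative values for 76 gene results, 928 kept direction and side of the threshold, 312 kept direction but lost the call and 4 reversed. The 4 came with the day 11 tumours alone, for Osi7 (-0.29), TwdlE (-0.19), TwdlT (-0.65) and Osi2 (-0.13). Counts are given as higher and lower, and only those that moved by over 1.5 times. With DESeq2's test, eye-antennal tumours had 5 lower, the disc difference 8, tai 3 lower, Stat92E 8 lower and day 11 had 1 higher. With the compared libraries alone, eye-antennal tumours had 6 and 4, leg 6 higher, wing 5 higher, day 11 had 1 and 7, CG6272 3 and 1, sd 4 lower, tai 0 higher, Stat92E 0 and 1, and kay 0 higher. With leg discs alone sd had 2 higher. With limma-voom and dissection as a random block, tumour against control had 8 and 2, eye-antennal 4 and 4, leg 6 and 2, wing 8 higher, the disc difference 3, CG6272 1 and 1, sd 1 and 1, tai 0 higher and Stat92E 1 lower. Without the block, a setting chosen after seeing the data, these were 13 and 4, 5 and 4, 3 lower in leg, 6 higher in wing, 9 among control discs, CG6272 2 and 1, sd 2 and 3, and tai 0 higher. A minimum of 5 CPM gave 1 lower in eye-antennal tumours, 11 among control discs and 4 higher with CG6272, and no filter gave 2 higher for sd. The day 11 tumours alone, likewise added later, gave 13 higher over the discs, CG6272 2 and 2, sd 2 and 3, tai 0 higher, Stat92E 7 higher and kay 0 higher. The day 9 tumours alone gave CG6272 3 and 11, sd 14 lower, tai 7 lower, Stat92E 5 and 11, and kay 2 lower.

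With the replicate number as a replicate block, sd had 3 higher and kay 0 higher, and as a replicate block by genotype the disc difference had 6. Same-numbered libraries share only a number across genotypes.

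With each library left out, the counts ranged over 18 to 27 and 6 to 9 for tumour against control, 6 to 10 and 1 to 2 in eye-antennal, 4 to 12 and 1 to 4 in leg and 4 to 18 and 0 to 3 in wing discs. They ranged over 1 to 3 for the disc difference, 6 to 15 among control discs, 0 to 1 and 4 to 11 for day 11, 3 to 6 and 1 to 9 for CG6272, 1 to 3 and 3 to 11 for sd, 0 to 4 and 0 to 1 for tai, 3 to 4 and 2 to 5 for Stat92E, and 0 and 0 for kay. The cause of these moves was not tested beyond the fewer libraries or genes of each setting.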

Other observations

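Markers of other larval tissues, from lists chosen with earlier results known, differed between tumour and control discs (edgeR, mean over the discs), where 28.3% of all genes tested were higher and 24.5% lower. Of 6 fat body genes 5 fell, of 6 salivary gland glue genes 6 fell, and of 6 hemocyte genes 3 rose, namely Hml (2.74 ± 0.53, adjusted p = 5.6e-04), Sr-CI and Pxn. Of 3 tracheal genes serp rose and trh fell, and of 4 larval muscle genes Mlc2 rose (1.83 ± 0.50, adjusted p = 0.00645). Hemocyte markers summed to 21.9 to 128 CPM in controls and 153 to 327 in tumours, with no overlap. Of the disc markers, 4 of 4 eye-antennal, 3 of 4 leg and 2 of 3 wing genes fell and none rose.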
